A study of Mus musculus with 2 samples.

Results

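The peaks described here are the weakest CTCF sites that still passed the authors' filter for reproducible peaks in newborn mouse heart. They are the 4338 of 43380 optimal peaks on chromosomes 1 to 19 chosen by their pooled signal value, which lay at or below the 10th percentile of 17.6. By that choice the pooled signal runs from 5.504 to 17.6 with a median of 14.7, against a median of 72.6 in the other 39042 optimal peaks. The assay was ChIP-seq, in which chromatin bound to CTCF is pulled down with an antibody and sequenced, on heart tissue of B6NCrl mice at postnatal day 0. Its 2 libraries, replicate 1 and replicate 2, form 1 untreated group and carry the same tissue sample and donor identifier in the labels, so differences between the libraries may be technical alone. Sex was not recorded, and peak lists hold no expression values with which heart markers could be checked. Each library has a relaxed list of 300000 peaks, and the authors derived an optimal list of 44533 peaks and a conservative list of 43221 from these by the irreproducible discovery rate (IDR), which keeps peaks that rank alike in repeated calls. Read depth is not given in the lists, so the counting error of a signal is unknown. Shares below carry exact binomial 95% intervals, which cover counting error only. Peaks are not replicates of a condition, and with 1 group no condition can be compared.

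CTCF is a DNA-binding protein with a row of zinc fingers. It halts the cohesin complex as that complex extrudes chromatin loops, and so marks many loop anchors and the borders of insulated domains. Its central zinc fingers read a long, directional motif with a conserved core, and methylation of a CpG within the motif can prevent binding, as at the imprinted H19 and Igf2 domain.

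The windows below show the kinds of sequence found at the weakest sites. Each is the 101 bases centred on the summit in mm10, written 5′ to 3′ on the strand of its best match to the 14-base CTCF core consensus, with that match in capitals. The first pair holds the core with 0 mismatches in introns of Rasa2, which encodes a Ras GTPase-activating protein (chr9:96598050-96598150, minus strand), and of Syne1, which encodes the nuclear envelope protein nesprin-1 (chr10:5480728-5480828, plus strand).
Rasa2 intron: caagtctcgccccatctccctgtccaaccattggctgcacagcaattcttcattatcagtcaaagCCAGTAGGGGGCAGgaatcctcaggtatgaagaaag
Syne1 intron: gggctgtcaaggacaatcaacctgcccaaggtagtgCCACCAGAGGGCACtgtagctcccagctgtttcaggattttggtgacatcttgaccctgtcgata

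The next 4 lie in sequence masked as repeats, and are shown because closely alike cores recur among the weakest sites. They are 109 bp upstream of Anapc7 (chr5:122421534-122421634, plus strand), in an intron of Anapc7 (chr5:122425690-122425790, plus strand), 4.43 kb upstream of the calcium pump gene Atp2a2 (chr5:122506605-122506705, plus strand) and in an intron of Gja5, which encodes the gap junction protein connexin 40 (chr3:97048490-97048590, minus strand).
Anapc7 upstream: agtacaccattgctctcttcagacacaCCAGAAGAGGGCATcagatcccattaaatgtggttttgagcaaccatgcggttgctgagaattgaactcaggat
Anapc7 intron: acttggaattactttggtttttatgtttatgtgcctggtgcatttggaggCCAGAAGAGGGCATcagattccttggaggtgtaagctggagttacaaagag
Atp2a2 upstream: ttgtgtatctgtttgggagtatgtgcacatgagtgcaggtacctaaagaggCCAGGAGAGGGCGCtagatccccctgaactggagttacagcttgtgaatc
Gja5 intron: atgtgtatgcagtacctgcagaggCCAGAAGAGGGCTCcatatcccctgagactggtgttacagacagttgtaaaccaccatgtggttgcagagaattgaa

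The last 5 lie mostly outside masked sequence and stand for promoters and heart regulator loci. Many of the weakest promoter sites had no core, but the Sox7 and Cmtm8 windows hold one at the limit of 2 mismatches used below. The best match has 2 mismatches upstream of Sox7, an endothelial transcription factor gene (chr14:63943500-63943600, plus strand), and of Cmtm8 (chr9:114844239-114844339, minus strand). It has 4 mismatches upstream of Srf, the serum response factor gene (chr17:46556519-46556619, plus strand). It has 3 mismatches 7.04 kb past the 5′ end of Hand2, a regulator of right ventricle formation (chr8:57327972-57328072, plus strand), and in an intron of Gata4, a zinc finger regulator of heart development (chr14:63236782-63236882, plus strand).
Sox7 promoter: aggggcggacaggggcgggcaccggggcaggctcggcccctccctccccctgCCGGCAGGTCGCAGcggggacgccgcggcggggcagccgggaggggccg
Cmtm8 promoter: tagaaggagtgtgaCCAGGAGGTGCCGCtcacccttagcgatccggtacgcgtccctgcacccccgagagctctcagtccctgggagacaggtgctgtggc
Srf promoter: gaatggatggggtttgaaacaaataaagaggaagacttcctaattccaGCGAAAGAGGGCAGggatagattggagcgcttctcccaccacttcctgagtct
Hand2 downstream: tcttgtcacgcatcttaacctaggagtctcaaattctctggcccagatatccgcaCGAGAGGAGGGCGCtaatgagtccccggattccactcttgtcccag
Gata4 intron: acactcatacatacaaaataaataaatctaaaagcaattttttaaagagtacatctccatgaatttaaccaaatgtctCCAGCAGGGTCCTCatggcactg

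Most of the weakest sites were still listed in both libraries. A summit of both relaxed lists lay within 100 bp of 3365 of the 4338 (77.6%, interval 76.3 to 78.8%), beside 97% of all optimal peaks and 99.2% of the other optimal peaks. Another 558 (12.9%) had a summit within 100 bp in replicate 1 alone, 379 (8.74%) in replicate 2 alone, and 36 (0.830%) in neither. Here and below, listed in 1 library alone or found in neither refers to summits within 100 bp only. Such a site may still have a peak whose summit lies further off. Within 200 bp the share found in both was 87.0%. The conservative list held 74 of the 558 sites, 55 of the 379 and 6 of the 36. Bases within 100 bp of a summit made up 2.39% of chromosomes 1 to 19 in either relaxed list. The pooled list and the replicate lists come from the same reads, which makes these shares a description of the peaks and no independent support for them.

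**Figure D1:**
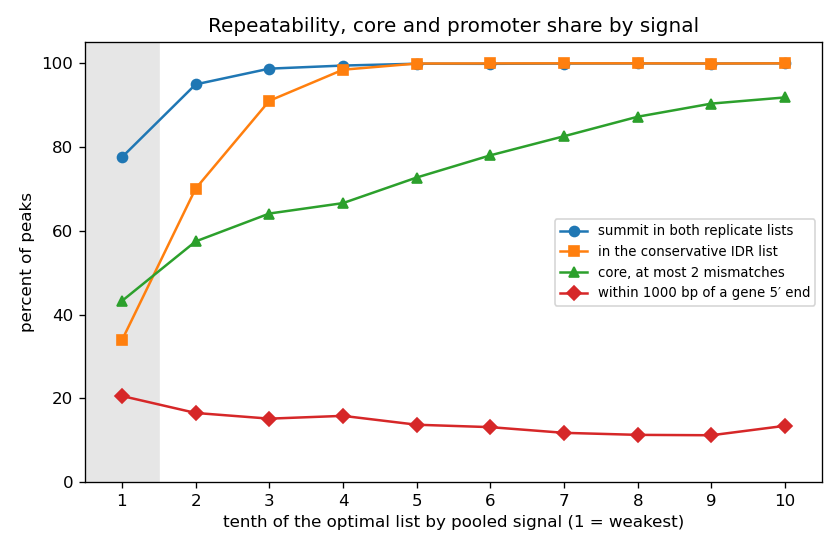
Each point is 1 of 10 equal groups of optimal peaks on chromosomes 1 to 19, ordered by pooled signal from the weakest (1) to the strongest (10) on the x axis, and the y axis gives the percent of peaks found in both replicate lists, in the conservative list, with a core or at a promoter. The weakest group stands lowest for replication (77.6%), conservative listing (33.9%) and core (43.2%), and highest for promoters (20.6%).

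The matches lay deep in the replicate lists. Counted from the strongest peak of each list, the matched peaks had a median rank of 48126 in replicate 1 and 50330 in replicate 2, whereas those of the other optimal peaks had medians of 19814 and 19747.5. With the lists of the libraries restricted to as many of their strongest peaks as there are optimal peaks, 108 of the weakest sites (2.49%) were found in both, against 92.4% of the others. Summits also agreed less closely in position: 47.9% of the weakest sites had a replicate 1 summit within 10 bp and 45.4% a replicate 2 summit, against 79.7% and 76.4% of the others.

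Among the 3365 sites found in both libraries, signal values ran from 2.95 to 18.98 in replicate 1, with a median of 7.40, and from 3.17 to 15.7 in replicate 2, with a median of 6.70. The lowest values that the relaxed lists hold at all are 2.94 and 3.16, so the weakest of these sites stood at the floor of the lists. On the log2 scale, the ratio of replicate 2 to replicate 1 had an SD of 0.77 over sites around a median of -0.12, beside 0.46 and -0.22 in the other optimal peaks. The next 10% of optimal peaks by signal had an SD of 0.785, so this spread was not confined to the weakest sites. The libraries differed by more than 2-fold at 748 sites (22.2%, interval 20.8 to 23.7%), in 466 of them with the higher value in replicate 1, while 6.26% of the other peaks differed as much.

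The conservative list of the authors held 1469 of the weakest sites (33.9%, interval 32.5 to 35.3%), beside 89.3% of all optimal peaks and 95.5% of the others. Among sites found in both libraries, those in and out of this list differed in the signal of the library where they were weaker. IDR keeps peaks that rank alike in repeated calls, so this difference follows at least in part from how the list was made. It is a description of the list and no independent support for its sites. Among the 1334 that are also conservative, the lower of the 2 signals was never under 5.64, had a median of 6.84, and the libraries differed by over 2-fold at 2 sites. Among the 2031 that are not conservative, the lower signal had a median of 4.85, and 746 sites (36.7%) differed by over 2-fold. Of the conservative and the other sites, 17.8% (15.8 to 20.003%) and 19.5% (17.8 to 21.3%) lay at promoters, and 49.0% (46.2 to 51.7%) and 43.8% (41.6 to 46.0%) had a core.

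**Figure D2:**
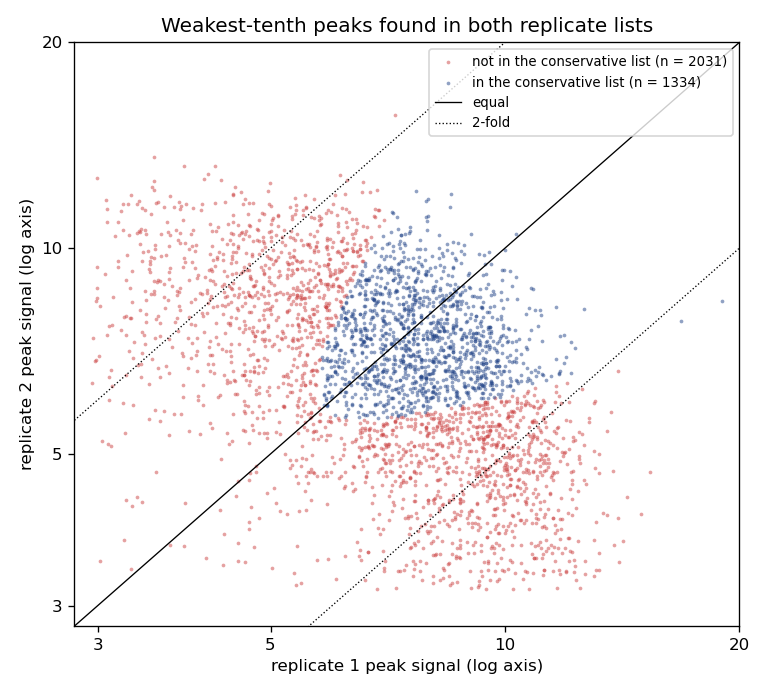
Each point is 1 of the 3365 weakest sites found in both libraries, with its replicate 1 signal on the x axis and its replicate 2 signal on the y axis, both logarithmic, coloured by presence in the conservative list. Conservative sites occupy the corner where both signals are above 5.64, and the remaining sites spread along both arms. The conservative list was made by agreement in rank between calls, so this pattern follows at least in part from its making.

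Within the weakest sites the same measures still moved with signal. Of the 868 lowest, with pooled signals of 5.504 to 12.7, 53.7% were found in both libraries, 26.8% had a core and 25.5% lay at promoters. In the 868 highest, from 16.4 to 17.6, these shares were 90.4%, 52.3% and 18.7%. How the optimal list takes in peaks at this depth can be read from the pooled relaxed list. Of its peaks with a signal above 14 and up to the limit, 2685 of 5603 (47.9%) were optimal, of those from 11 to 14 it was 14.1%, of those from 8 to 11 it was 0.744%, and of those from 5.5 to 8 only 83 of 162227. Above the limit the share was 95.9%.

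No step in signal separates the weakest sites from the next ones. The site just inside the limit lay 25.82 kb upstream of Ppp3ca, the gene of a calcineurin catalytic subunit, at a pooled signal of 17.5907, followed by sites nearest to Aptx, Tnks, Ddhd2 and Barhl1 down to 17.5865. The peak just outside lay 31.85 kb from the 5′ end of Ctcfl, a germline relative of Ctcf, at 17.5909, and the next were nearest to Tpst1, Ccdc122, Ffar2 and Usp6nl, up to 17.594. All 10 were found in both libraries, and 8 of them were conservative. At the other end, the 5 lowest sites lay nearest to Tbc1d22a (5.504), Sema4c (5.52), Rilp (5.52), Fam160a2 (5.57) and Olfr412 (5.60), and none of these was found in both libraries.

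The weakest sites lay at promoters more often than the stronger ones. Their summits were within 1000 bp of the 5′ end of a gene of any type in 892 cases (20.6%, interval 19.4 to 21.8%), beside 14.2% of all optimal peaks and 13.5% (13.2 to 13.9%) of the others. The weakest sites lay between genes in 27.4% of cases (26.0 to 28.7%) and the others in 35.5% (35.1 to 36.0%). Introns held 45.3% of the weakest sites and 43.7% of the others, coding exons 2.47% and 2.40%, and other exons 4.31% and 4.87%. The weakest 10% within the strongest 43380 peaks of each library, taken from that library alone, lay at promoters in 17.6% of cases in replicate 1 and 18.8% in replicate 2 (18.2% ± 0.861, SD, n = 2). In these sets 834 and 603 peaks match 1 of the 4338 sites, and 46.2% and 39.6% match an optimal peak of any strength. Both promoter shares lie above the 13.5% of the stronger optimal peaks and below the 20.6%. The stronger peaks of each library's own list were not counted, so these sets have no like comparison.

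**Figure D3:**
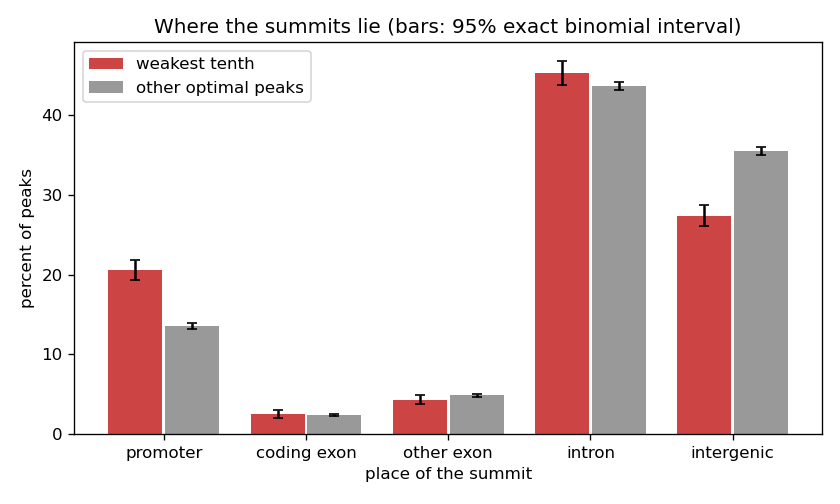
Bars give the percent of the weakest sites and of the other optimal peaks with a summit in each place, with exact binomial 95% intervals as error bars. The weakest sites stand higher at promoters (20.6% against 13.5%) and lower between genes (27.4% against 35.5%), and the 3 other places differ by less than 2 percentage points.

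The promoter sites touched 792 protein-coding genes at 729 sites, with 88 sites near 2 or more protein-coding 5′ ends and 165 near 5′ ends on both strands. Of all 20807 protein-coding genes, 3.81% had a weakest site within 1 kb of the 5′ end and 21.9% an optimal peak of any strength. Over the 822 pairs of a site and a protein-coding gene, the median distance was 259.5 bp, 201 summits lay within 100 bp of the 5′ end, and 376 lay upstream of it. The windows were rich in G and C, at a median of 61.4%, and held a median of 6 CpG, against 60.4% and 5 at the other promoter peaks. A core was present at 25.1% (22.3 to 28.1%) of them, against 59.8% (58.4 to 61.1%) of the other promoter peaks. They were found in both libraries in 71.2% of cases, beside 80.4% of the intronic, 78.9% of the intergenic, 76.6% of the coding exon and 70.1% of the other exon weakest sites.

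Among promoters found in both libraries, the highest lower signal belonged to Zfp281, a zinc finger repressor of pluripotent cells, with a summit 22 bp upstream of the 5′ end. Its signals were 10.3 in replicate 1 and 10.5 in replicate 2 (10.4 ± 0.130, SD, n = 2). Irx5, whose homeobox protein helps to set the repolarisation gradient of the ventricle, had 9.97 and 9.30, with the summit 153 bp past the 5′ end. Unc5c, which encodes a netrin receptor, had 9.39 and 9.77. Their pooled signals were 16.9 to 17.2. Over the weakest sites found in both libraries, pooled signals were about the sum of the replicates (median ratio 1.04). At Zfp281, Irx5 and Unc5c they lay below that sum. As pooled signals are capped here at 17.6, the choice by the lower signal favours near-equal values. It also favours sites whose pooled signal falls below the sum.

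Several genes of metabolism followed. Slc25a4, the ADP/ATP carrier of heart and muscle mitochondria, had 8.70 and 10.2, 106 bp past its 5′ end. Pnpla2, the triglyceride lipase of fat stores, had 10.3 and 9.07 with the summit 629 bp past the 5′ end and was the only promoter of this set whose window held a core with 1 mismatch. Uck1, a uridine-cytidine kinase, had 8.98 and 9.15, and Pgls, of the pentose phosphate pathway, had 8.98 and 8.76.

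The rest of this set were Ccdc17, Cmtm8, Cdc25b with Spef1, Sec61a2, Rangap1 with Zc3h7b, and Hey1, at lower signals from 8.55 to 8.71. Cdc25b, a phosphatase that activates cyclin-dependent kinases, and Rangap1, the activator of the Ran GTPase, each share their site with a neighbouring gene. Hey1, a Notch target repressor of heart valve and atrioventricular development, had 8.58 and 8.55 and differed least of all of these. All 15 genes had conservative sites.

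Of the promoters found in both libraries, the 5 genes with the widest gap were high in replicate 1 at the site ranked. Promoter sites listed in 1 library alone have no ratio and are left out of this ranking. Examples are Mad1l1, at 14.5 in replicate 2 alone, and Nox4, at 13.6 in replicate 1 alone. Cpne2, a copine gene, had 12.5 in replicate 1 and 3.18 in replicate 2, a log2 ratio of -1.97. Capn1, which encodes the calcium-dependent protease calpain 1, had 12.996 and 3.31. The shared site of Nfkbib, an inhibitor of NF-kappa-B, and Sirt2, a deacetylase, had 11.7 and 3.18, and 1700029J07Rik had 12.3 and 3.36. None of these sites was conservative, and the value in replicate 2 lay near the lowest that list holds.

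The CTCF core was present at a minority of the weakest sites. The consensus, searched on both strands, was found with at most 2 mismatches wholly inside the window at 1876 sites (43.2%, interval 41.8 to 44.7%), beside 73.4% of all optimal peaks and 76.8% of the others. Windows of equal size 1000 bp to the left and right of the weakest sites held it in 2.72% and 2.67% of cases. A core with 0 mismatches was found at 75 sites (1.73%) against 12.8% of the others. With up to 3 mismatches the shares were 70.2% and 93.5%, against 17.6% in the left flank of the weakest sites.

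**Figure D4:**
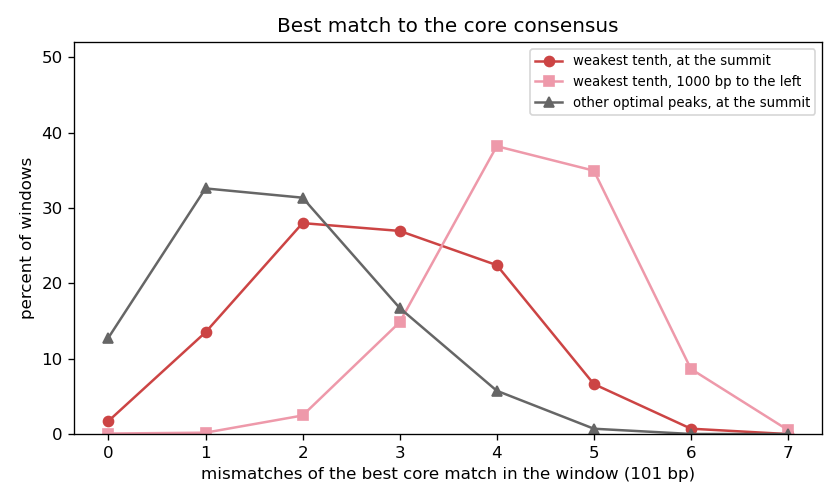
Points give the percent of 101 bp windows (y axis) by the number of mismatches of their best match to the core consensus (x axis), for the weakest sites, the windows 1000 bp to their left and the other optimal peaks. The weakest sites peak at 2 and 3 mismatches (28.0% and 27.0%), between the other optimal peaks at 1 (32.6%) and the left flanks at 4 (38.2%).

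Core and place went together. Intergenic weakest sites had a core in 52.1% of cases, intronic ones in 46.6%, coding exons in 46.7%, other exons in 36.9% and promoters in 25.1%. Sites with a core were found in both libraries in 82.2% of cases and sites without one in 74.0%, with median pooled signals of 15.2 and 14.4. The core lay a median of 12 bp from the summit, against 5 bp in the other optimal peaks, and within 20 bp of it at 71.3% of the sites that have one, against 93.0%. The weakest 10% of each library's own list had a core in 45.8% of cases in replicate 1 and 36.6% in replicate 2 (41.2% ± 6.53, SD, n = 2), so the libraries differed in this more than in the promoter share.

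Many cores at the weakest sites lay in repeats. The genome masks at least 7 bases of the core in 37.0% of the weakest sites that have one (34.9 to 39.3%), against 16.9% (16.5 to 17.4%) of the others, and most of the window was masked at 18.5% against 10.1%. The next 2 groups of 10% by signal had masked windows in 20.5% and 19.3% of cases, slightly more than the weakest sites. One core recurred above all: 392 of the 1876 cores (20.9%, 19.1 to 22.8%) began CCAGAAGAGGGC, as in the Anapc7 and Gja5 windows above, and all 392 were masked. Among the cores of the other peaks, 2540 of 29979 (8.47%) began so. The 14-base form CCAGAAGAGGGCAT alone made up 165 cores at the weakest sites and 950 at the others, and CCAGAAGAGGGCAC 80 and 656. This beginning was picked out after the cores had been counted, and the repeat families are not named in the annotation used here.

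Among peaks with a core, the share that begins this way declined along the list, with no step at the limit. From the weakest to the strongest group of 10 it was 20.9%, 20.8%, 18.8%, 15.3%, 10.8%, 8.27%, 5.55%, 3.01%, 2.22% and 0.878%. As a share of all peaks, with or without a core, it was 9.04% in the weakest group and 11.9%, 12.1%, 10.2% and 7.86% in the next 4. The 392 sites were found in both libraries in 83.7% of cases, and 28 of them lay at promoters. Masked windows at the weakest sites had a core in 72.0% of cases and unmasked ones in 36.7%, and the promoter shares were 6.12% and 23.8%. Masked sites with a core thus seldom lay at promoters.

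Short motifs of other factors were searched on both strands in the same windows, and each was found in a small share of them. The GC box GGGCGG was present at 7.45% (6.68 to 8.27%) of the weakest sites and 5.59% (5.36 to 5.82%) of the others. Within promoters the shares were 22.0% (19.3 to 24.8%) and 19.2% (18.1 to 20.3%), and away from promoters 3.69% and 3.46%. The GATA motif AGATAA was found at 3.18% of the weakest sites, 2.63% of the others and 6.22% of the left flanks of the weakest sites. The 6-base TEAD motif CATTCC was found at 5.42%, 4.94% and 4.98%. The YY1 motif AAGATGGC was rarer at the weakest sites, 0.922% (0.660 to 1.25%), than at the others, 1.56% (1.44 to 1.69%), and stood at 0.715% in the left flanks of the weakest sites. The inner part of the CTCF core, written AGGGGGC, was present at 8.51% against 15.3%, and the form AGGTGGC at 5.69% against 13.5%.

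The weakest sites kept the company of other CTCF peaks about as often as stronger ones did. Another optimal peak lay within 10 kb of 51.2% (49.7 to 52.7%) of them and of 52.8% (52.3 to 53.3%) of the others, and the nearest peak above the limit was at a median of 10977.5 bp and 10073 bp. Within 1 kb the shares were 10.03% (9.15 to 10.96%) and 7.97% (7.70 to 8.24%). By chromosome, the weakest sites made up from 8.69% of the optimal peaks on chromosome 10 to 11.6% on chromosome 4.

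Genes of heart muscle and heart development often had a weakest site nearby, mostly together with stronger ones. Of 167 genes in 6 heart lists, 36 (21.6%) had a weakest site within 10 kb of the 5′ end, beside 9.33% of all 20807 protein-coding genes. The same heart genes had an optimal peak of any strength within 10 kb in 113 cases (67.7%), beside 51.9% of protein-coding genes. Just 5 heart genes (2.99%), Myom2, Gata6, Heyl, Atp2a2 and Acvr1, had weakest sites and no stronger optimal peak there, beside 3.56% of protein-coding genes. The lists were written with earlier results of these data known, and neighbouring genes can share a site.

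**Figure D5:**
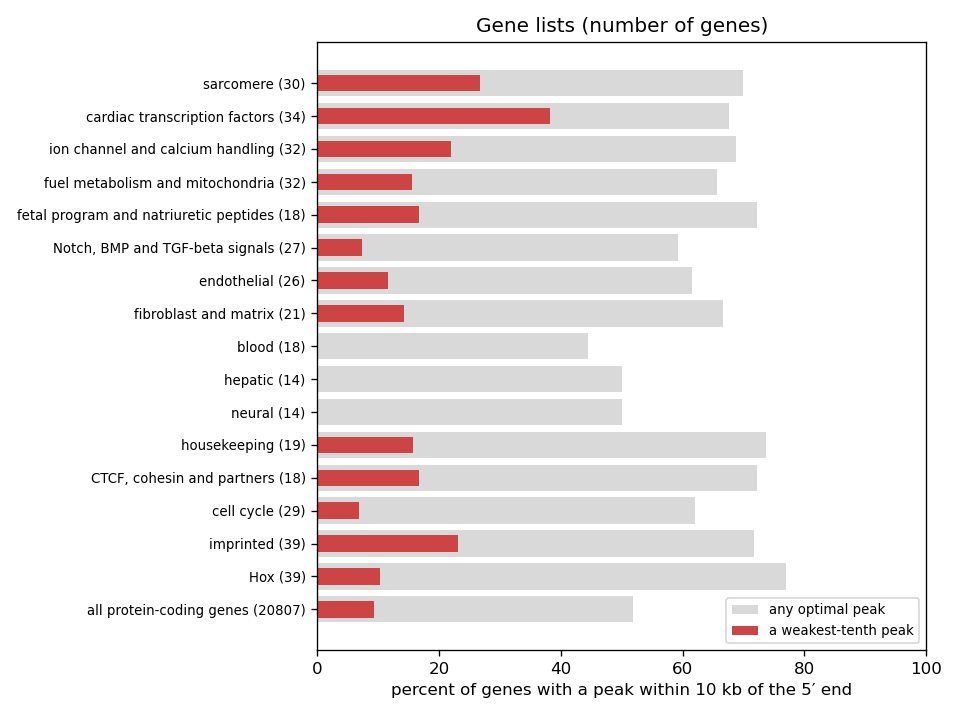
For each gene list, with its number of genes in brackets, the x axis gives the percent of genes with a weakest site and with any optimal peak within 10 kb of the 5′ end. The cardiac transcription factors stand highest for weakest sites (38.2%), and the blood, hepatic and neural lists stand at 0.

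The transcription factor list had the most, 13 of 34 genes. At Myocd, the muscle coactivator myocardin, the summit lay 237 bp upstream of the 5′ end, with signals of 3.12 in replicate 1 and 6.64 in replicate 2. The Srf site, 394 bp upstream, had a summit within 100 bp in replicate 1 alone, at 7.70, and is yet conservative. The Gata6 site, 949 bp past the 5′ end, was listed in replicate 2 alone at 4.64. Only Hey1 and Irx5, of the 5 genes of this list with such a site within 1000 bp, were above 8 in both libraries. Mef2d, a MADS-box factor of muscle, had 3 weakest sites within 10 kb among 5 optimal peaks, at pooled signals of 12.03, 13.6 and 14.7. Sites further from the 5′ ends were found near Tbx2, Hand2, Heyl, Irx4, Prdm16, Foxc1 and Foxp1, and that of Foxc1 was found in neither library.

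Sarcomere genes followed with 8 of 30. Myh7, the slow myosin heavy chain of the fetal ventricle, had its site 288 bp past the 5′ end, at a pooled signal of 14.5, with 4.36 in replicate 1 and 9.26 in replicate 2. Tnnc1, cardiac troponin C, had a conservative site 1.2 kb upstream at 9.01 and 7.02. Myom2, a protein of the M band, had a site 2.26 kb upstream, listed in replicate 1 alone at 6.04. The sites of Myl3 and Csrp3 were listed in replicate 2 alone, that of Xirp1 in replicate 1 alone, and the site of Cryab, a small heat shock protein, lay 42 bp upstream of its neighbour Hspb2.

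Among 32 channel and calcium handling genes, 7 had a weakest site within 10 kb. Kcnj2, the inward rectifier potassium channel, had a summit 58 bp past its 5′ end that only replicate 2 matched within 100 bp, at 11.5. Kcnh2, the channel of the rapid repolarising current, had one 1.03 kb upstream at 4.45 and 10.5. Camk2d, a calcium and calmodulin-dependent kinase, had 11.2 and 3.38, so the library with the higher value was not the same from gene to gene.

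The remaining heart lists had fewer. Of 32 genes of fuel metabolism 5 had a weakest site, with that of Lpl, the lipoprotein lipase, 228 bp past the 5′ end at 6.65 and 7.60 and conservative. Of 18 fetal genes 3 did: Myh7, Ankrd1 and Igf2. Of 27 genes of Notch, BMP and TGF-beta signalling, Hey1 and the BMP receptor gene Acvr1 did, the latter 470 bp past the 5′ end at 6.22 and 6.07. The shares of these 3 lists were 15.6%, 16.7% and 7.41%, beside 9.33% of all protein-coding genes. In other lists of the heart's cell types, 3 of 26 endothelial genes (11.5%) had one, among them Sox7 at 7.91 and 6.45. The fibroblast list had 3 of 21 (14.3%). Among them were Col1a2, a chain of type I collagen, at 5.97 and 11.3 and Sparc, a matrix glycoprotein, at 6.11 and 9.89. In lists of this size, the endothelial, fibroblast and signalling shares lie near the 9.33%. No gene of the blood (18), hepatic (14) or neural (14) lists had one, while 8, 7 and 7 of them had an optimal peak of some strength. The 9.33% of all protein-coding genes comes to fewer than 2 genes in each of these lists, so the counts of 0 lie near that background.

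In 36 chosen loci, each taken with 50 kb to either side, the weakest sites made up 44 of 290 optimal peaks (15.2%, interval 11.2 to 19.8%), against 10% in the whole set by its definition. Beside heart loci, the set includes those of Ctcf and of H19 and Igf2. Of the 44 sites, 34 were found in both libraries, 13 had a core and 13 were conservative. The shares over all weakest sites were 77.6%, 43.2% and 33.9%. They fell in 24 loci, and 14 of these had a single one. Among the loci that held none were those of Nkx2-5, Hand1, Mef2c, Tbx20, Isl1, Actc1, Mybpc3, Ryr2, Pln, Vegfa and Bmp10, with 1 to 9 optimal peaks each.

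The Atp2a2 locus held the most, 5 of its 10 optimal peaks. Atp2a2 encodes SERCA2, the pump that returns calcium to the sarcoplasmic reticulum. The site 4.43 kb upstream, within 1000 bp of the 5′ end of Gm22965, had a core with 1 mismatch in masked sequence, with 11.6 in replicate 1 and 6.88 in replicate 2. The site in the intron, 37.19 kb past the 5′ end, had 7.81 and 8.95, and that in an exon, 1.86 kb past it, 8.20 and 6.05. The other pair belongs to the neighbour Anapc7, a subunit of the anaphase-promoting complex, and both carry CCAGAAGAGGGCAT. They had 4.75 and 10.3 upstream of Anapc7 and 11.6 and 6.29 in its intron, so that the libraries ranked these equal cores in opposite order.

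The Tbx3 and Tbx5 locus, of T-box factors of the conduction system and the left ventricle, held 4 of 13. All 4 lay between the genes and were found in both libraries, and the 3 nearest to Tbx5, at 12.27, 17.26 and 70.35 kb upstream of it, were conservative. The Tnnt2 and Tnni1 locus, with 2 troponin genes, held 4 of 17. One of these, 4.83 kb past the Tnnt2 5′ end, was found in neither library, and another, 1.81 kb past it, had 10.5 and 4.54. The Ttn locus, of the giant sarcomere spring titin, held 3 of 12, of which 2 lay in coding exons of Ttn and 1 of these had a core with 1 mismatch. None of the 3 was conservative.

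At single-site loci, the Gata4 intron site, 34.86 kb past the 5′ end, had 4.56 in replicate 1 and 7.25 in replicate 2. The Hand2 site had 3.91 and 6.68. That of Gja5, in the masked window shown above, had 9.21 and 8.48 and was conservative. The site near Hcn4, the pacemaker channel gene, had 5.56 and 10.1, and that near Gja1, which encodes connexin 43, was listed in replicate 2 alone at 8.25. The promoter of Ctcf itself held a weakest site 274 bp past the 5′ end, with 10.7 and 8.17, 3 mismatches and a conservative entry.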

How the data were processed

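CTCF ChIP-seq of newborn heart gave 5 deposited peak lists, on mm10 per the labels. The authors called relaxed peaks on replicate 1, replicate 2 and both together against a control (its alignment was not used here), per the text files deposited with them, and derived the optimal and conservative lists by IDR. Which aligner and peak caller they used is not given in the sources used here. Each peak's signal is the deposited value, on a scale the sources do not state. Pooled signals were near the summed replicate signals (median ratio 1.04 at the weakest sites), and no scaling was applied between libraries. The deposited q-value score falls below 0 at 36 of the weakest sites, so it served only as a description: 81.0% of the weakest sites reach q = 0.05. All of them are 224 bp wide.

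A summit is the peak start plus the offset given by the authors, and peaks match when their summits lie within 100 bp. Sequence came from the RefSeq assembly GRCm38 (mm10), with repeats in lower case, and genes from GENCODE M21. Each summit was called promoter (within 1000 bp of the 5′ end of a gene record of any type), or else, in this order, coding exon, other exon, intron, intergenic. Cores were searched on both strands within 50 bp either side of the summit. A core is masked when at least 7 of its 14 bases are in lower case, and a window when over 50% of it is.

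Members and gene lists (16 lists, of whose names 400 matched a gene on chromosomes 1 to 19 and 9 did not) were chosen with earlier results of these data known, and no test was made. Named genes are the protein-coding genes with a site within 1000 bp found in both libraries that have the 15 highest lower signals or the 5 largest log2 ratios, the heart list genes with a site within 1000 bp or with weakest sites alone within 10 kb, the 2 nearest genes of each other list, the genes of 36 loci, and those at the limit. Some genes that this rule takes are not reported here. Others were chosen after their values were seen. Matching, the core search and the lookup of positions in genomic intervals were tested on simulated data, and the binomial intervals were not. Alternatives were other distances, mismatch limits, percentiles, gene ends, list lengths, the conservative list and each library alone. Python 3.11.15, numpy 2.4.6, pandas 2.3.3, scipy 1.17.1 and matplotlib 3.10.9 were used.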

Additional observations from a re-analysis of the deposited data

How the results depend on the processing

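Of 43 alternatives to the 7 main values, 9 moved the value by less than 1 SD of the 2 libraries or its 95% interval, and 34 moved it by more. The share found in both libraries, 77.6%, was 62.1% with summits within 50 bp, 87.0% within 200 bp, 2.49% among as many of each library's strongest peaks as there are optimal ones, 67.5% in the weakest 5%, 86.3% in the weakest 20% and 88.5% in the weakest 10% of the conservative list. The share not in the conservative list, 66.1%, was 79.0% in the weakest 5% and 48.0% in the weakest 20%. The promoter share, 20.6%, was 15.4% within 500 bp, 25.8% within 2000 bp, 26.9% with the 5′ ends of all transcripts and 16.8% with protein-coding genes alone. It was 23.1% in the weakest 5%, 18.5% in the weakest 20% and 19.03% in the weakest 10% of the conservative list. With either library left out it was 17.6% to 18.8%. The core share, 43.2%, was 15.2% with at most 1 mismatch, 70.2% with at most 3, 29.9% within 25 bp of the summit, 36.1% in the weakest 5%, 50.4% in the weakest 20% and 36.6% to 45.8% with either library left out. The share within 10 kb of another optimal peak, 51.2%, was 34.1% within 5 kb, 88.2% within 50 kb and 47.5% counting stronger peaks alone. It was 52.6% in the weakest 5%, 50.7% in the weakest 20% and 50.3% in the weakest 10% of the conservative list. With either library left out it was 49.3% to 50.03%. The share differing over 2-fold, 22.2%, was 0.0806% in the weakest 10% of the conservative list. The share of heart genes near a weakest site, 21.6%, was 5.99% within 1 kb and 42.5% within 50 kb. All protein-coding genes had shares of 3.81% and 27.5% at these distances. Apart from what each alternative changes by its own construction, the cause was not tested. No paired analysis was possible because there is 1 group.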

Other observations

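Imprinted genes are expressed from the allele of 1 parent, and CTCF is known to bind some of their control regions in an allele-specific way. Of 39 imprinted genes, 9 had a weakest site within 10 kb of the 5′ end and 28 had an optimal peak of any strength, or 23.1% and 71.8%, beside 9.33% and 51.9% of all protein-coding genes. For 3 of them, Igf2r, Airn and Nnat, the weakest site was the sole optimal peak there, and Igf2r and Airn were named after their values were seen. Nespas, an antisense transcript of the Gnas cluster, had its summit 56 bp upstream of the 5′ end, with a core of 1 mismatch, at 7.23 in replicate 1 and 15.7 in replicate 2. Nnat, which encodes neuronatin, had a site 1.31 kb upstream at 6.11 and 8.67. Igf2, a fetal growth factor gene, had a site in an intron listed in replicate 1 alone at 6.07 and another 7.46 kb past the 5′ end at 5.48 and 5.68. Of these 9 genes, Grb10 alone had a conservative weakest site.

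Among the other lists, shares with a weakest site were close to or above the 9.33% of all protein-coding genes for genes of chromatin looping (16.7%) and of the Hox clusters (10.3%). Of 18 genes of CTCF, cohesin and partners, 3 had one: Ctcf, the cohesin loader gene Nipbl, 85 bp past its 5′ end at 5.62 and 4.70, and Pds5a, 2.26 kb past its 5′ end at 6.98 and 6.97. Of 39 Hox genes, which pattern the body axis, 4 had a weakest site within 10 kb and 30 had an optimal peak. Hoxc5, Hoxc9 and Hoxc10 share a single site in a coding exon at 6.25 and 7.85, and Hoxa4 has one in an intron at 9.29 and 7.76. Of 19 housekeeping genes, 3 had one within 10 kb (15.8%), and of 29 cell cycle genes Cdk4 and Aurkb did (6.90%).

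Genes other than protein-coding ones made up part of the promoter sites: 64 antisense, 57 lincRNA, 16 snoRNA and 14 miRNA genes had a weakest site within 1000 bp of the 5′ end. The shares of all annotated genes of these types were not counted, so the counts do not show whether any type is over-represented. The 36 sites without a summit of either library within 100 bp had a median pooled signal of 8.39. Of them, 11 lay at promoters, 7 had a core, and 6 are in the conservative list.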
